A study of Mus musculus with 6 samples.

Results

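The mitochondrial ribosomal proteins are the protein subunits of the ribosome that works inside mitochondria. Members were the protein coding genes whose symbol begins with Mrpl or Mrps followed by a number. This gave 78 genes of the 54532 genes, 22046 of them protein coding, in the deposited expression table. By their place in the ribosome, 51 members belonged to the large subunit and 26 to the small subunit. Mrps30 and Mrps18a carry small-subunit names but sit in the large subunit and were counted there. Mrps36 is known as a component of the oxoglutarate dehydrogenase complex and was counted in neither subunit.

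The mitochondrial ribosome translates the messenger RNAs of the mitochondrial genome, which encode core subunits of the respiratory chain and of ATP synthase. Its ribosomal RNAs are made from mitochondrial DNA, whereas its proteins are encoded in the nucleus, made on cytosolic ribosomes and imported. Some of these proteins have homologues in bacterial ribosomes and others are specific to mitochondria. The heart depends strongly on oxidative phosphorylation, and inherited mutations in several members, among them Mrpl3, Mrpl44 and Mrps22, are known causes of cardiomyopathy.

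The libraries came from polyadenylated RNA of whole mouse hearts at an age of 4 days. There were 3 libraries of genotype Wtapflox/flox, called Wtap-flox, and 3 labelled Wtap-CKO, a conditional knockout of Wtap. WTAP is a regulatory subunit of the complex that places N6-methyladenosine on messenger RNA, and the study asks how it acts in heart development. The submitters described the 3 libraries of each group as independent biological replicates. The Cre driver, the deleted exons and the cells in which the deletion occurs could not be taken from the labels. Wtap itself stood at 7.77, 8.74 and 10.9 FPKM in Wtap-flox 1 to 3 and at 9.32, 7.75 and 9.46 FPKM in Wtap-CKO 1 to 3. The groups overlapped, and the log2 difference was -0.04 ± 0.15 (SE, adjusted p = 0.893, limma). A total over the whole gene does not show whether a part of it was deleted, so Wtap-CKO means the libraries so labelled throughout.

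FPKM is a count per gene scaled by gene length and by library size. Fold changes are Wtap-CKO over Wtap-flox on the log2(FPKM + 1) scale, fitted over the 12568 genes that averaged 1 FPKM or more, with 3 libraries per group. A gene was called at an adjusted p below 0.05. Between 15649028 and 18045599 reads per library were assigned to genes. The heart muscle markers were present in all libraries, with Actc1 at a mean of 7634 FPKM in Wtap-flox hearts and 9688 FPKM in Wtap-CKO hearts. Of 8 such markers, 0 were called higher and 1, Ryr2, lower (log2 difference -0.97). Their median difference was -0.21, with 2 positive and 6 negative values, and 3 were lower at an unadjusted p below 0.05. The largest negative difference was that of Myl7, an atrial myosin light chain (-1.78, adjusted p = 0.072, limma). In such bulk RNA, fewer cells of a type and less RNA per cell cannot be told apart.

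The members did not sit at the same level within each group, and 1 library stood apart. Relative to each member's mean over the 6 libraries, the median member deviated by -0.25, -0.03 and -0.03 on the log2 scale in Wtap-flox 1 to 3. The corresponding medians were 0.11, -0.11 and 0.34 in Wtap-CKO 1 to 3. Wtap-CKO 3 was therefore the highest library and Wtap-flox 1 the lowest, and Wtap-CKO 2 lay below Wtap-flox 2 and Wtap-flox 3. Of 77 tested members, 50 had their highest value in Wtap-CKO 3 and 39 their lowest in Wtap-flox 1. Within the Wtap-CKO group, 60 of 77 members were higher in library 3 than in library 1, and 72 of 77 were higher in library 1 than in library 2. Summed over members, FPKM came to 1467, 1708 and 1768 in the Wtap-flox libraries and to 2169, 1845 and 2672 in the Wtap-CKO libraries. The sums of the 2 groups did not overlap, although the medians did.

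**Figure D1:**
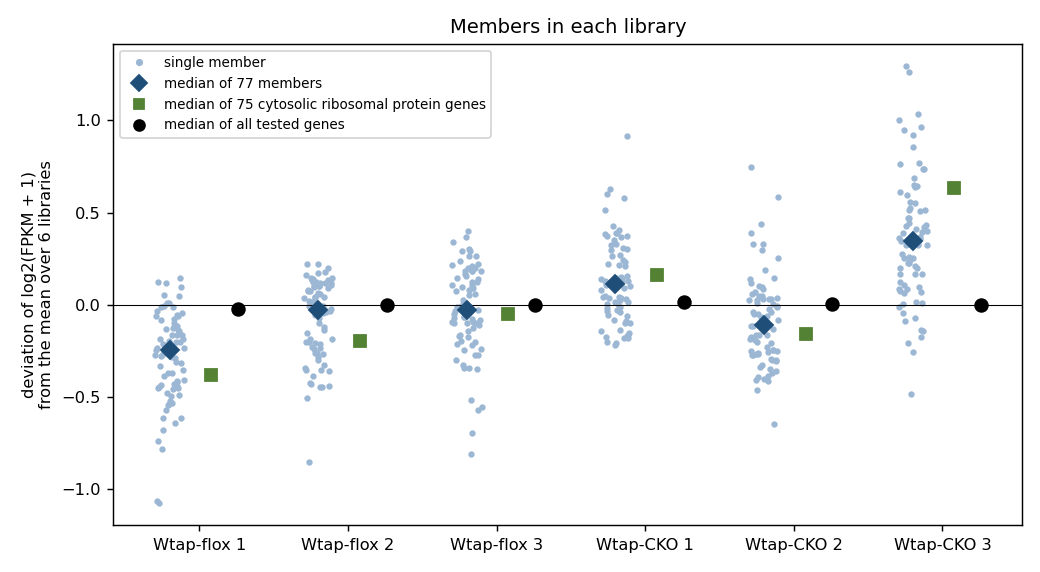
Deviation of log2(FPKM + 1) from each gene's mean over 6 libraries (y axis) in each library (x axis), for single members, for the median of 77 members, for the median of 75 cytosolic ribosomal protein genes and for the median of all tested genes. The member median lies at 0.34 in Wtap-CKO 3 and at -0.11 in Wtap-CKO 2, while the median of all tested genes stays near 0 in every library.

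Several other measures, though not all, also stood apart in Wtap-CKO 3. The summed level of 3 neutrophil markers was 4.01 to 7.81 FPKM in Wtap-flox and 11.1, 7.76 and 70.8 FPKM in Wtap-CKO 1 to 3, with Ly6g at 0 in every library except Wtap-CKO 3, where it was 0.0602 FPKM. The 4 macrophage markers summed to between 19.0 and 22.3 FPKM in Wtap-flox and to between 26.7 and 41.1 FPKM in Wtap-CKO, and 1 of 4, C1qa, was called higher. The 5 fibroblast markers stood lowest in Wtap-CKO 3, at a sum of 219.8 FPKM against 284 to 331 FPKM in the other libraries, and 2 of 5, Dcn and Lum, were called lower. The 4 smooth muscle and pericyte markers had their highest sum in Wtap-CKO 3, at 946 FPKM against 527 to 766 FPKM elsewhere. Only 1 of these 4 had a positive log2 difference and 3 a negative one, and their median deviation in Wtap-CKO 3 was -0.02. The 4 erythroid markers had their lowest sum in Wtap-flox 1, at 601 FPKM against 1141 to 2074 FPKM, and their highest in Wtap-flox 3. The 75 cytosolic ribosomal protein genes had median deviations of -0.38, -0.20 and -0.05 in Wtap-flox 1 to 3 and of 0.16, -0.16 and 0.63 in Wtap-CKO 1 to 3. They thus ordered the libraries much as the members did. The part of these measures in the results for members was not tested.

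More members were higher than lower in Wtap-CKO hearts. Of the 77 members tested, 17 rose, 2 fell and 58 did not pass the threshold. Among all 12568 tested genes, 9.91% were called higher and 6.69% lower. The 17 that rose were Mrpl43, Mrps34, Mrpl46, Mrps2, Mrps7, Mrpl20, Mrps23, Mrpl34, Mrpl51, Mrpl50, Mrpl16, Mrps24, Mrpl17, Mrpl15, Mrps18a, Mrps17 and Mrpl32, in order of size from 1.74 to 0.47 on the log2 scale. Mrpl47 and Mrpl39 fell. The median log2 fold change of the tested members was 0.20, with 51 positive and 26 negative values, against 0.00 for all tested genes. In 29 members every Wtap-CKO library was above every Wtap-flox library, and in 4 members every one was below. Among all tested genes the corresponding shares were 19.8% and 17.3%.

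The number of calls depended on the scaling of the libraries and on which of them were in the fit. When libraries were scaled to TPM, 9 members were called higher and 4 lower with a median of 0.04, and scaling to a fixed total without the genes of mitochondrial DNA also gave 9 and 4, with a median of 0.03. The medians of all tested genes under these scalings were -0.16 and -0.17. The filter and pseudocount of 1 were applied after rescaling, so 15359 and 16062 genes were tested. Of these, 820 and 784 were called higher and 1614 and 1601 lower. The part of scaling alone in these fits was not tested. Upper-quartile scaling, over 12570 genes, gave 11 members higher and 3 lower. Without Wtap-CKO 3 the member median fell to 0.04, and 11 members were called higher and 4 lower, beside 9.46% and 6.6% of all tested genes. Of those 11, 10 were among the original 17, and the 4 lower members were Mrpl39, Mrpl42, Mrpl47 and Mrpl49. The count of higher members was 6 without Wtap-flox 1, 7 without Wtap-flox 2, 10 without Wtap-flox 3, 8 without Wtap-CKO 1 and 25 without Wtap-CKO 2. In the same order, higher calls over all tested genes numbered 715 of 12538, 772 of 12579, 803 of 12589, 740 of 12613 and 1136 of 12581. The reported fit had 1245 of 12568, so most of these fits called fewer genes of any kind. The member median was 0.11 without Wtap-flox 1 and 0.33 without Wtap-CKO 2. Mrpl47 kept its call without Wtap-flox 1 and without Wtap-CKO 3, and Mrpl39 without Wtap-CKO 3 alone. The 6 members Mrpl43, Mrpl46, Mrps2, Mrps7, Mrps23 and Mrps34 were called higher in all 21 alternative fits, which include leaving out each library in turn.

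**Figure D2:**
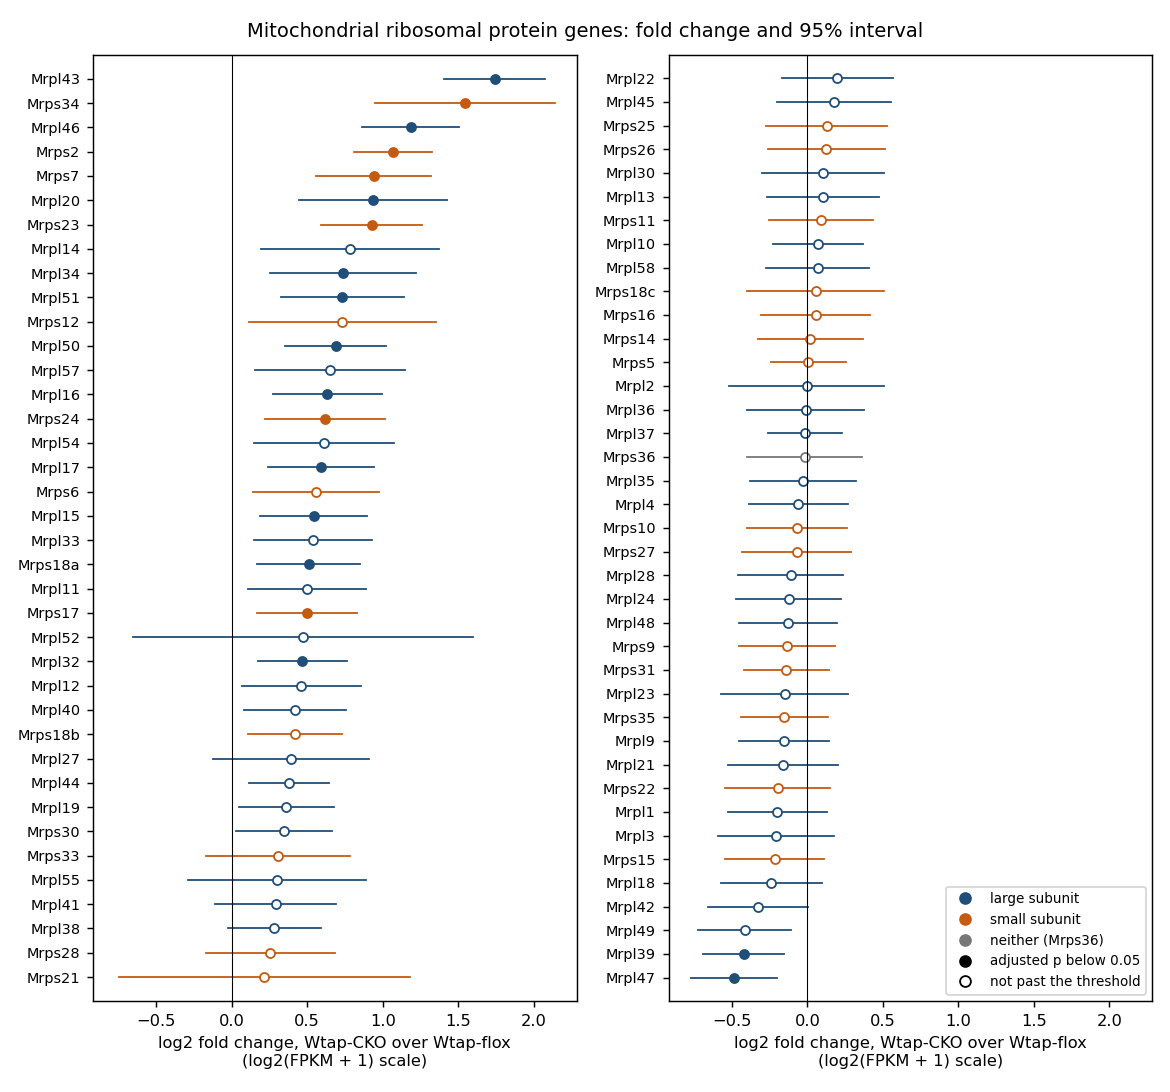
Log2 fold change of each of 77 members (x axis, log2(FPKM + 1) scale, Wtap-CKO over Wtap-flox, 3 libraries each) with its 95% interval, ordered by size and coloured by subunit. Filled points pass an adjusted p of 0.05, from Mrpl43 at 1.74 to Mrpl47 at -0.49, and the 58 open points do not.

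Of the 17, 4 rose by at least 1 on the log2 scale, and Mrpl43 had the largest change. Mrpl43 is a mitochondria-specific protein of the large subunit. Its level was 35.5, 41.1 and 46.0 FPKM in Wtap-flox 1 to 3 and 143, 127 and 146 FPKM in Wtap-CKO 1 to 3. All 3 Wtap-CKO libraries were far above the highest Wtap-flox library, with little spread within either group. The log2 fold change was 1.74 ± 0.15 (SE), 3.39-fold in mean FPKM (adjusted p = 0.000459, limma). Over the alternative fits it ranged from 1.58 to 1.83. Mrpl43 spans chr19:45005014-45006442 on the minus strand and overlaps no other coding gene.

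Mrpl43 starts close to Twnk, which encodes the helicase that unwinds mitochondrial DNA and is transcribed from the opposite strand. Twnk was measured at 6.41, 7.02 and 7.17 FPKM in Wtap-flox and at 10.8, 10.6 and 10.1 FPKM in Wtap-CKO. It rose by 0.55 ± 0.11 (SE, adjusted p = 0.0109, limma), and its groups did not overlap either. The 115 bases between the 2 gene starts lie at chr19:45006443-45006557 (RefSeq, GRCm38.p6) and are printed because both genes they separate were called higher. They are given on the strand of Mrpl43, with matches to the ETS motif CCGGAAG in capitals. The first base lies beside the start of Twnk and the last beside that of Mrpl43, and the label only names the pair.
Mrpl43 to Twnk: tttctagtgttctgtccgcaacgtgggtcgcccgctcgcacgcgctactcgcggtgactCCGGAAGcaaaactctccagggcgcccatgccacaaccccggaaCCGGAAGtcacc
The stretch held 2 matches.

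The large subunit had 11 members called higher (22.0%) and 2 lower (4.0%) of 50 tested, with a median log2 fold change of 0.29. Among all tested genes 9.91% were called higher and 6.69% lower. Its 29 members with a bacterial homologue had 6 calls higher and 1 lower, with a median of 0.10. Its 21 tested members counted as specific to mitochondria, Mrps18a among them, had 5 higher and 1 lower, with a median of 0.34. Without Wtap-CKO 3 the large subunit had 7 calls higher and 4 lower, beside 9.46% and 6.6% of all tested genes. Its median was then 0.13, and the medians of these classes were 0.0069 and 0.19. The median of the class with a bacterial homologue was negative when libraries were scaled to TPM (-0.059), where that of all tested genes was -0.16. No test compared these classes.

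After Mrpl43, the largest rise in the large subunit was that of Mrpl46, a mitochondria-specific protein. Mrpl46 was measured at 15.2, 19.7 and 17.7 FPKM in Wtap-flox and at 41.2, 36.7 and 45.4 FPKM in Wtap-CKO. The groups were well apart, and the lowest Wtap-CKO value came from library 2. The log2 fold change was 1.18 ± 0.14 (SE, adjusted p = 0.0015, limma). Mrpl46 lies on the minus strand at chr7:78775236-78783531 and overlaps the start of another member, Mrps11, on the plus strand. Mrps11 ranged from 7.66 to 10.6 FPKM in Wtap-flox and from 8.70 to 11.6 FPKM in Wtap-CKO and was not called (log2 fold change 0.09, 95% interval -0.25 to 0.43). Its sign was negative without Wtap-CKO 3 and when libraries were scaled to TPM, where the median of all tested genes was -0.16. The sources used here do not say whether strand was used in counting.

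Mrpl20, homologous to a bacterial protein that binds the large ribosomal RNA early in assembly, had 13.2, 14.6 and 12.6 FPKM in Wtap-flox and 25.1, 19.6 and 38 FPKM in Wtap-CKO. The 3 Wtap-flox values lay close together, whereas the Wtap-CKO values spread more widely than the gap between the group means of 13.4 and 27.6 FPKM. Mrpl20 rose by 0.94 ± 0.21 (SE, adjusted p = 0.0208, limma) and by 0.69 without Wtap-CKO 3. It was called in 2 of the 6 fits that left out a library.

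The other 3 members of the large subunit counted as specific to mitochondria and called higher had smaller changes. Mrpl51 was measured at 23.3, 28.2 and 28.4 FPKM in Wtap-flox and at 45.0, 35.5 and 56.1 FPKM in Wtap-CKO, a log2 fold change of 0.73 ± 0.18 (SE, adjusted p = 0.025, limma). Mrpl50 was measured at 17, 18.3 and 24.3 FPKM and at 31.3, 31.9 and 33.6 FPKM, a change of 0.69 ± 0.15 (SE, adjusted p = 0.0152, limma). For Mrpl50 the spread was in the Wtap-flox group, where library 3 was the high one. Mrps18a, at 10.3, 13.9 and 14.3 FPKM in Wtap-flox and 19.3, 16.4 and 20.1 FPKM in Wtap-CKO, passed narrowly (0.51, adjusted p = 0.0499, limma).

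The other members of the large subunit called higher have bacterial homologues. Mrpl34, which had the highest mean level of all members at 115 FPKM over the 6 libraries, rose from 86.4 ± 18.2 to 145 ± 29.7 FPKM (SD, n = 3 each; adjusted p = 0.0465, limma). Mrpl16 rose from 43.1 ± 3.09 to 68.1 ± 12.9 FPKM (SD, n = 3 each; adjusted p = 0.0285, limma). In both, Wtap-CKO 3 was the highest library. Mrpl17, Mrpl15 and Mrpl32 were among the weakly expressed members and rose by 0.59, 0.54 and 0.47 on the log2 scale, with adjusted p of 0.0328, 0.0455 and 0.0406 (limma). Mrpl32, which is trimmed by a mitochondrial protease before it enters the ribosome, went from 4.04, 4.04 and 4.38 FPKM to 6.82, 5.08 and 6.59 FPKM. None of the 5 kept its call in more than 2 of the 6 fits that left out a library.

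**Figure D3:**
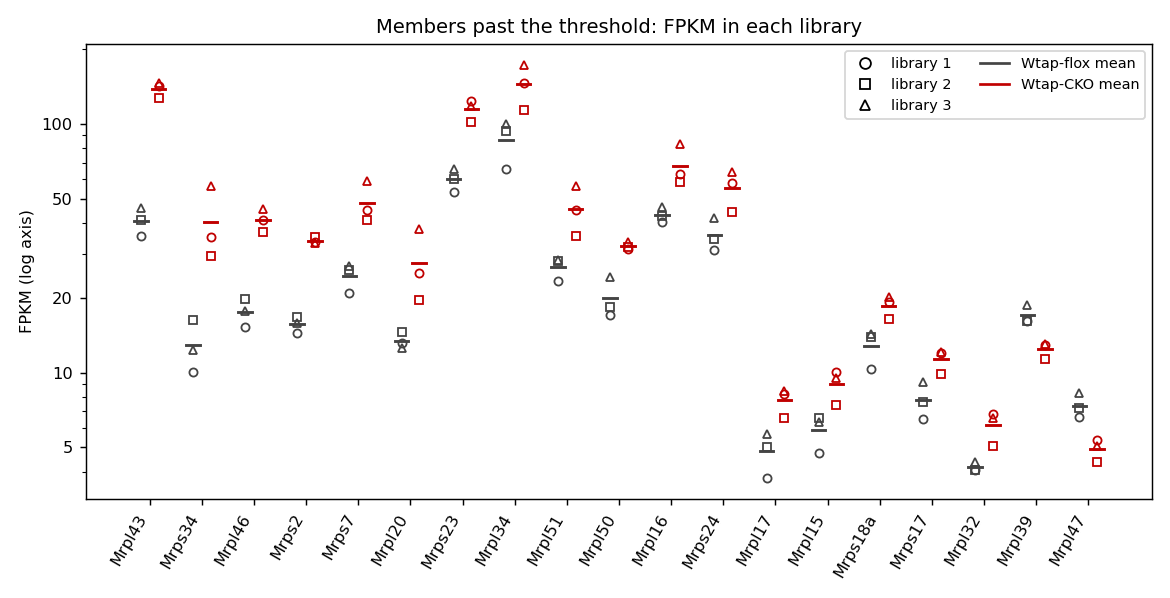
FPKM in each library (y axis, log scale) of the 19 members past the threshold, with symbols for libraries 1 to 3 and lines for the group means. In the 17 members on the left the Wtap-CKO libraries lie above the Wtap-flox libraries, with the widest gap for Mrpl43, and in Mrpl39 and Mrpl47 they lie below.

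Both members that fell belong to the large subunit. Mrpl47, a homologue of a bacterial protein near the exit of the peptide tunnel, was measured at 6.61, 7.18 and 8.25 FPKM in Wtap-flox and at 5.37, 4.38 and 5.08 FPKM in Wtap-CKO. Mrpl47 fell by 0.49 on the log2 scale (SE 0.13, adjusted p = 0.0309, limma). Mrpl39, a mitochondria-specific protein, went from 16.2, 16.2 and 18.7 FPKM to 12.9, 11.4 and 13.1 FPKM. Mrpl39 fell by 0.42 on the log2 scale (SE 0.12, adjusted p = 0.0422, limma). In neither gene was Wtap-CKO 3 the extreme library, and without it the differences were -0.51 and -0.46. Mrpl47 overlaps Ndufb5 and Actl6a, and Mrpl39 overlaps no coding gene. The next differences below 0 were those of Mrpl49, Mrpl42 and Mrpl18, at -0.42, -0.33 and -0.24, with adjusted p of 0.0701, 0.159 and 0.308 (limma).

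The small subunit had 6 members called higher (23.1%) and 0 lower of 26 tested by limma, beside 9.91% and 6.69% of all tested genes. At an unadjusted p below 0.05, 9 were higher and 0 lower, and limma-voom on the recovered reads called 7 higher and 0 lower. The median log2 fold change was 0.13, and it was -0.02 when libraries were scaled to TPM and -0.03 without Wtap-CKO 3. The medians of all tested genes in those settings were -0.16 and 0.005. The 16 members with a bacterial homologue had 4 calls higher and a median of 0.15, and the 10 specific to mitochondria had 2 and a median of 0.13. Without Wtap-CKO 3 these medians were -0.024 and -0.051.

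Mrps34, a mitochondria-specific protein whose loss causes combined respiratory chain deficiency in humans, had the largest rise of the small subunit. It was measured at 10.1, 16.3 and 12.3 FPKM in Wtap-flox and at 35.1, 29.5 and 56.2 FPKM in Wtap-CKO. The lowest Wtap-CKO library was well above the highest Wtap-flox library, with wide spread within both groups. Mrps34 rose by 1.54 ± 0.26 (SE, adjusted p = 0.00706, limma), and by 1.28 without Wtap-CKO 3. It lies at chr17:24895116-24897502 on the plus strand and overlaps Mapk8ip3 and Nme3.

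Mrps2, whose bacterial homologue sits at the back of the small subunit, had the tightest groups among the large changes. The values were 14.5, 16.7 and 15.9 FPKM in Wtap-flox and 33.5, 35.2 and 33.3 FPKM in Wtap-CKO. Unlike most members, it was highest in Wtap-CKO 2. It rose by 1.07 ± 0.11 (SE, adjusted p = 0.000973, limma) and by 1.08 without Wtap-CKO 3. Mrps2 lies at chr2:28468066-28471178 and overlaps no coding gene.

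Mrps23, specific to mitochondria and the third most abundant member, was measured at 53.5, 60.3 and 65.7 FPKM in Wtap-flox and at 124, 102 and 118 FPKM in Wtap-CKO, with library 1 the highest. It rose by 0.93 ± 0.15 (SE, adjusted p = 0.00441, limma). Mrps7, homologous to a bacterial protein that nucleates the head of the small subunit, was measured at 20.9, 26 and 26.7 FPKM and at 45.0, 41.0 and 58.9 FPKM. It rose by 0.94 ± 0.17 (SE, adjusted p = 0.00709, limma). In Mrps7, Wtap-CKO 3 was again the highest library, and the change without it was 0.79.

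Mrps24 and Mrps17 also have bacterial homologues and had smaller rises. Mrps24 went from 35.7 ± 5.58 to 55.5 ± 10.03 FPKM (SD, n = 3 each; adjusted p = 0.0444, limma) and Mrps17 from 7.75 ± 1.31 to 11.3 ± 1.28 FPKM (SD, n = 3 each; adjusted p = 0.0473, limma). Neither was called without Wtap-CKO 3, at adjusted p of 0.09 and 0.0906 (limma).

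The paralogues Mrps18a, Mrps18b and Mrps18c occupy different sites, the first in the large subunit and the others in the small subunit. Mrps18b was measured at 6.54, 9.49 and 7.62 FPKM in Wtap-flox and at 10.9, 10.6 and 10.8 FPKM in Wtap-CKO (log2 fold change 0.42, adjusted p = 0.072, limma). Mrps18c was measured at 11.4, 13.2 and 14.5 FPKM and at 14.2, 9.75 and 17.8 FPKM. The groups of Mrps18b did not overlap, and those of Mrps18c did. The change of Mrps18c was 0.05 with a 95% interval from -0.40 to 0.51. Its sign was negative when libraries were scaled to TPM, where the median of all tested genes was -0.16. Mrps18a passed the threshold and Mrps18c did not, but the difference between paralogues was not tested.

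Between adjusted p of 0.05 and 0.1 there were 9 members with a higher mean in Wtap-CKO, namely Mrpl44, Mrpl33, Mrps18b, Mrps6, Mrpl14, Mrpl54, Mrpl57, Mrpl11 and Mrpl40, and 1 with a lower mean, Mrpl49. Mrpl44, which has a fold related to ribonuclease III, was measured at 20.3, 21.3 and 23.1 FPKM in Wtap-flox and at 27.5, 27.3 and 30.1 FPKM in Wtap-CKO (log2 fold change 0.38, adjusted p = 0.0569, limma). Mrpl14 was measured at 27.7, 25.2 and 29.3 FPKM and at 39, 37.05 and 75.2 FPKM (0.78, adjusted p = 0.0737, limma). The groups of both genes were apart. Mrpl14 was called without Wtap-CKO 3, at a smaller change of 0.46 (adjusted p = 0.0415, limma).

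Several members known for a role beyond the structure of the ribosome, or for heart disease, were not called. Mrpl12, which forms part of the stalk and is known to bind the mitochondrial RNA polymerase, was measured at 58.8, 76.9 and 68.3 FPKM in Wtap-flox and at 97.7, 76.7 and 109 FPKM in Wtap-CKO. Its Wtap-CKO 2 value fell within the Wtap-flox range (log2 fold change 0.46, 95% interval 0.06 to 0.85, adjusted p = 0.107, limma). Mrpl3 ranged from 13.9 to 16.2 FPKM in Wtap-flox and from 9.61 to 15.0 FPKM in Wtap-CKO (-0.21, interval -0.59 to 0.17). Mrps22 ranged from 5.30 to 8.10 FPKM and from 5.57 to 6.4 FPKM (-0.20, interval -0.55 to 0.15). Mrps30 had a change of 0.34 (interval 0.03 to 0.66, adjusted p = 0.128, limma). Mrpl58, a peptidyl-tRNA hydrolase that became part of the ribosome, had a change of 0.07 (interval -0.28 to 0.41). Mrps36 had a change of -0.02 (interval -0.40 to 0.36), and its groups overlapped.

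Levels differed widely among members. Mean FPKM over the 6 libraries ran from 4.29 to 115 among the tested members, a 26.9-fold range, with a median of 18.5. The highest were Mrpl34, Mrpl43, Mrps23, Mrpl12 and Mrpl54, and the lowest were Mrps25, Mrps10, Mrpl32, Mrps30 and Mrpl48. The median mean level was 21.4 FPKM in the large subunit and 11.9 FPKM in the small subunit. Each tested member had between 162 and 4001 reads in a library. Mrpl53 was listed at 0 in all 6 libraries and was not tested, and its gene model overlaps that of Gm42688.

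The median change differed between members of different gene length. Grouped by the gene length in the table, the median log2 fold change was 0.30 for the 21 members under 1500 bases and 0.40 for the 18 from 1500 to under 2500 bases. It was 0.06 for the 16 from 2500 to under 4000 bases and 0.05 for the 22 of 4000 bases and over. Without Wtap-CKO 3 the medians from the shortest to the longest class were 0.10, 0.32, -0.063 and -0.022. With a correction for gene length they were 0.16, 0.27, 0.0029 and 0.084. Over all tested genes the uncorrected medians of the same length classes were 0.10, 0.10, 0.06 and -0.05. With the correction the median of all tested members was 0.14, the same 17 members were called higher, and the count of lower members went from 2 to 5.

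**Figure D4:**
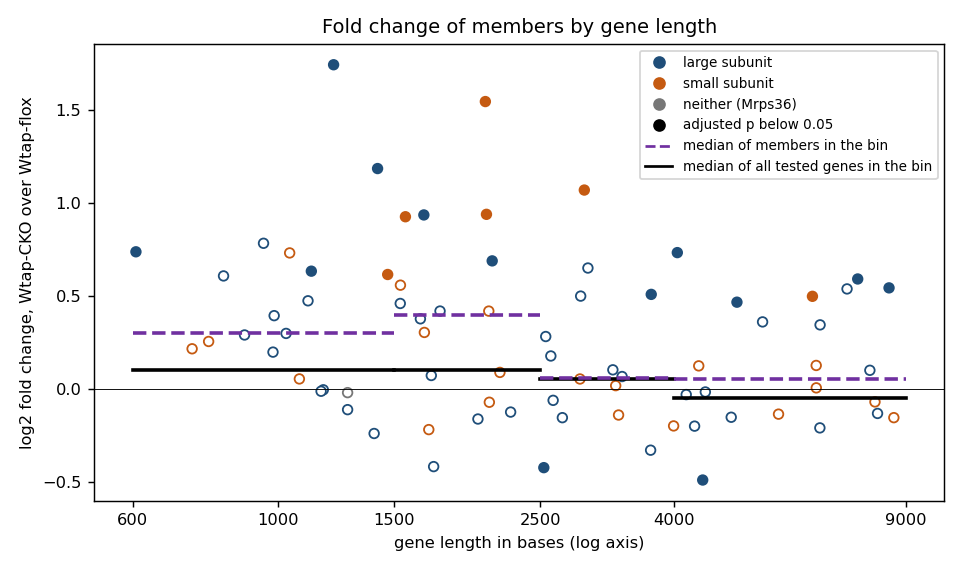
Log2 fold change (y axis) against gene length in bases (x axis, log scale) of the 77 tested members, coloured by subunit and filled where the adjusted p is below 0.05. Dashed lines give the member median and solid lines the median of all tested genes in each length class, which are 0.40 and 0.10 for 1500 to under 2500 bases and 0.05 and -0.05 for 4000 bases and over.

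Many members share a start region with another gene. A protein coding gene that starts on the opposite strand within 1000 bases was found for 33 of 77 tested members (42.9%), against 1823 of 11153 tested protein coding genes (16.3%). This gave 27 distinct pairs with both genes tested, with 26 to 935 bases between the starts. Of these pairs, 14 had fold changes of the same sign and 13 of opposite sign. The members had a median log2 fold change of 0.39 and their partners 0.00. Among the 27 partners 2 were called higher, 3 lower and 22 were not called. Among all tested protein coding genes 10.6% were called higher and 6.55% lower, and the partner counts were not tested against these shares. Mrpl43 and Twnk were the 1 pair in which both were called in the same direction.

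In 1 pair both genes were called in opposite directions. Ncapd2, which encodes a condensin subunit and starts 100 bases from Mrpl51, was measured at 26.9, 31.3 and 31.0 FPKM in Wtap-flox and at 16.3, 19.4 and 20.6 FPKM in Wtap-CKO. Ncapd2 fell by 0.64 on the log2 scale (adjusted p = 0.0135, limma), whereas Mrpl51 rose by 0.73. The groups of both genes were apart, in opposite order.

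Another 3 partners passed the threshold while the member did not. Sars2, the serine tRNA synthetase of mitochondria, starts 172 bases from Mrps12, whose product is known for its place in the decoding site. Sars2 was measured at 6.34, 7.71 and 7.44 FPKM in Wtap-flox and at 4.09, 3.79 and 5.02 FPKM in Wtap-CKO (log2 fold change -0.63, adjusted p = 0.014, limma). Mrps12 was measured at 17.2, 20.8 and 24.5 FPKM and at 24.1, 33.9 and 51.7 FPKM (0.73, adjusted p = 0.104, limma). The groups of Sars2 were apart, and those of Mrps12 overlapped through its first Wtap-CKO library. Ska3, beside Mrpl57, fell by 0.54 (adjusted p = 0.0454, limma) and Apba3, beside Mrpl54, rose by 0.43 (adjusted p = 0.0404, limma).

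**Figure D5:**
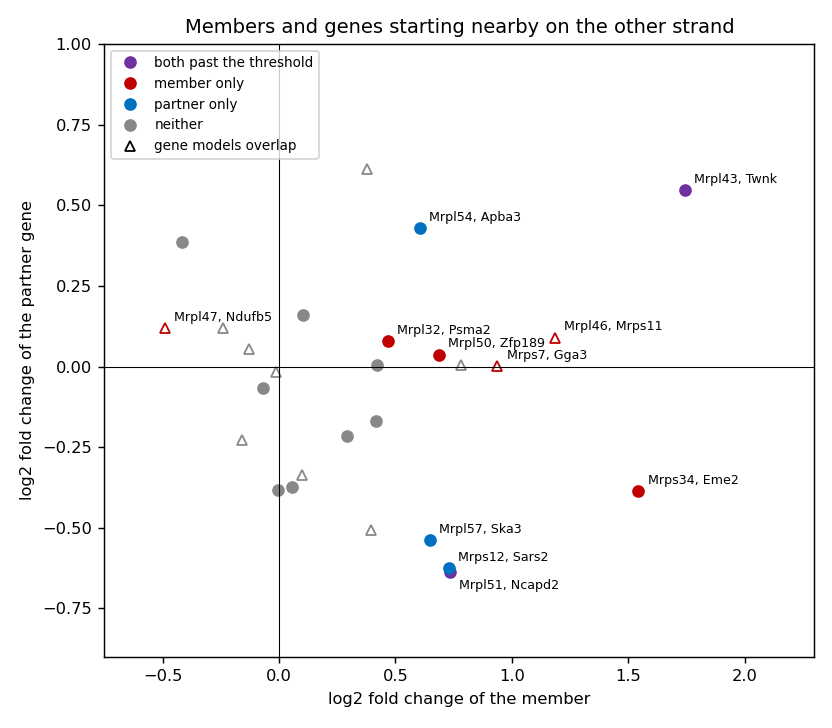
Log2 fold change of the member (x axis) and of the gene starting within 1000 bases on the opposite strand (y axis) for the 27 pairs with both tested; colour shows which gene passed the threshold and open triangles mark overlapping gene models. Mrpl43 with Twnk is the pair at the upper right, at 1.74 and 0.55, and Mrpl51 with Ncapd2 lies at 0.73 and -0.64.

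The start windows of members were searched for motifs of factors known to act on nuclear genes of mitochondria. The RefSeq windows (GRCm38.p6) run from 250 bases before to 50 bases after a gene start, and 69 of 78 members matched by symbol. Both strands were searched. The ETS motif CCGGAAG, bound by GABP among others, was found in 26 of 69 members (37.7%), against 9.93% of all 27025 symbols with a window and 13.3% of protein coding ones. The NRF1 core GCATGCGC was found in 8 members (11.6%), against 3.05% of all symbols and 4.10% of protein coding ones. The YY1 motif AAGATGGCG was found in 8 (11.6%), against 1.64% and 2.25%. The E-box CACGTG was found in 5 members (7.25%, against 8.09% and 9.20%) and the ERR motif TCAAGGTCA in 0 (against 0.466% and 0.388%). At least 1 of the ETS, NRF1 and YY1 motifs was found in 36 members, a count for which no share over all symbols was computed.

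The ETS motif was about as frequent in members that rose as in the others. It was found in 6 of 15 members called higher that had a window and in 20 of 52 members not called or not tested (38.5%). No test was run on these shares. As 2 examples, the stretches between the opposed starts of Mrps12 and Sars2 (chr7:28741821-28741991, minus strand, as Mrps12) and of Mrps27 and Ptcd2 (chr13:99344706-99344785, plus strand, as Mrps27) are printed from RefSeq, GRCm38.p6. They stand beside that of Mrpl43 and Twnk as a pair with opposite signs, of which only Sars2 was called, and a pair in which neither gene was called. The stretch of Mrpl51 and Ncapd2, both called in opposite directions, is not printed, and the RefSeq window of Mrpl51 held the ETS motif. In each stretch the first base lies beside the start of the partner and the last beside that of the member, and the label only names the pair. Capitals mark the ETS motif, here as its reverse complement.
Mrps12 to Sars2: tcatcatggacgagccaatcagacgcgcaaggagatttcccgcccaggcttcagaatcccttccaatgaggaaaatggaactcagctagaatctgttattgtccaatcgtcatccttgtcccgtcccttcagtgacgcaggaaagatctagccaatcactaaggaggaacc
Mrps27 to Ptcd2: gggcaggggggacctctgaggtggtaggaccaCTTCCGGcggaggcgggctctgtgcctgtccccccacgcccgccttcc
The first held none of the 5 motifs, although the RefSeq window of Mrps12 held the ETS motif elsewhere, and the second held 1. Mrps27 and Ptcd2 had log2 fold changes of -0.07 and -0.07. A match is a run of letters and was not tested as a bound site.

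The factors themselves were also measured. Of 12 transcriptional regulators of mitochondrial genes, 1 was called higher (8.33%, beside 9.91% of all tested genes) and 0 lower by limma, with 2 higher and 1 lower at an unadjusted p below 0.05 and the same calls by limma-voom. Myc, which binds E-boxes, was the one that rose, from 4.46, 5.81 and 4.47 FPKM to 9.76, 11.2 and 12.3 FPKM (log2 fold change 1.03 ± 0.14 SE, adjusted p = 0.00221, limma). Its groups were well apart. The changes of Gabpa, Nrf1 and Yy1 were -0.17, -0.01 and 0.00, and that of Esrra was -0.35 (adjusted p = 0.122, limma).

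Genes that act with the members were counted from lists drawn up for this purpose. Of the 5 mitochondrial ribosome proteins whose symbols fall outside the Mrp naming, 2 were called higher. Chchd1, of the small subunit, went from 36.6, 51.3 and 48.9 FPKM to 84.8, 67.0 and 98.1 FPKM (0.85, adjusted p = 0.0171, limma). Gadd45gip1, of the large subunit, went from 9.18, 13.9 and 13.8 FPKM to 22.7, 18.0 and 24.1 FPKM (0.78, adjusted p = 0.0202, limma). The groups of both were apart, but neither gene was called without Wtap-flox 1 or without Wtap-CKO 1. Ptcd3, Dap3 and Aurkaip1 had changes of -0.34, -0.28 and 0.07 and were not called.

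Of 24 tested assembly factors of the mitochondrial ribosome, 3 rose (12.5%) and 1 fell (4.17%), shares near those of all tested genes (9.91% and 6.69%), and the median was 0.12. The median was -0.077 when libraries were scaled to TPM, where that of all tested genes was -0.16. Ddx28, an RNA helicase of large-subunit assembly, went from 4.29, 5.76 and 4.67 FPKM to 9.86, 9.99 and 10.6 FPKM, a change of 0.92 ± 0.13 (SE, adjusted p = 0.00234, limma). Mrm3, which methylates the large ribosomal RNA, rose by 0.89 (adjusted p = 0.0177, limma), and Mterf4, which targets a methyltransferase to the ribosome, rose by 0.54 (adjusted p = 0.0315, limma). Noa1, a GTPase needed for the small subunit, fell by 0.47 (adjusted p = 0.0349, limma), a call lost in each fit that left out a library. With Wtap-flox 1 or Wtap-flox 2 left out, 1 assembly factor was called higher.

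Of 17 tested mitochondrial translation factors, 0 were called higher and 0 lower by limma. At an unadjusted p below 0.05, 0 were higher and 4 lower, and limma-voom called 1 lower. The smallest adjusted p was that of Qrsl1, a subunit of the amidotransferase that makes glutaminyl-tRNA, at 8.87, 10.5 and 10.6 FPKM in Wtap-flox and 7.54, 6.73 and 7.77 FPKM in Wtap-CKO (-0.40, adjusted p = 0.054, limma). The median of these factors was -0.11. Elongation factor Tufm, the most abundant of them, ranged from 89.0 to 117 FPKM in Wtap-flox and from 106 to 122 FPKM in Wtap-CKO (0.13, 95% interval -0.23 to 0.48).

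Of 21 tested genes of mitochondrial DNA maintenance, transcription and RNA processing, 3 rose (14.3%) and 1 fell (4.76%), beside 9.91% and 6.69% of all tested genes, with a median of 0.00. Besides Twnk, the rises were in Trmt10c, part of mitochondrial RNase P (0.64, adjusted p = 0.013, limma), and Tefm, the elongation factor of the mitochondrial RNA polymerase (0.63, adjusted p = 0.0151, limma). Fastk fell from 50.4, 52.3 and 50.7 FPKM to 34.0, 31.9 and 36.4 FPKM (adjusted p = 0.0135, limma). Without Wtap-CKO 1 the list had 1 rise and 0 falls, and without Wtap-flox 2 it also had 0 falls.

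The products of the mitochondrial genome, which the ribosome translates, were not called. Of its 13 protein coding genes, 0 were higher and 0 lower by limma and by limma-voom, with 0 higher and 1 lower at an unadjusted p below 0.05. Their median log2 fold change was -0.12. The ribosomal RNA genes mt-Rnr1 and mt-Rnr2 had changes of 0.21 (95% interval -0.25 to 0.68) and -0.14 (-0.70 to 0.42), although polyadenylated RNA is a poor measure of ribosomal RNA.

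The proteins of the cytosolic ribosome gave a different count. Of 75 tested genes, 0 were called higher and 0 lower by limma, although 73 had a positive log2 fold change and the median was 0.46. At an unadjusted p below 0.05, 13 were higher and 0 lower, and limma-voom called 3 higher. Without Wtap-CKO 3 their median was 0.19. The groups were apart in 7 cytosolic genes with Wtap-CKO higher (9.33%) and in 29 members (37.7%). The difference between the 2 ribosomes was not tested.

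Members that overlap another coding gene could hold reads of that gene, since counting of overlaps is not stated. Among the 25 such members, 24 were tested, with 5 called higher (20.8%), 1 lower (4.17%) and a median of 0.35. Among the 53 without an overlap, 12 were called higher (22.6%) and 1 lower (1.89%), with a median of 0.18. Among all tested genes the shares were 9.91% and 6.69%. The difference between members with and without an overlap was not tested. Of the 6 members called in every alternative, Mrpl43, Mrps2 and Mrps23 overlap no coding gene.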

How the data were processed

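The authors deposited FPKM values for each gene in the 6 libraries, in 1 table whose 6 columns were matched to samples by name. The tools named in the submitters' processing notes are CASAVA, HISAT2 2.0.5 (alignment), featureCounts 1.5.0-p3 (counting) and DESeq2 1.20.0. The notes name GRCm39, but a gene end of 77 of 78 members was at most 1000 bases from the GRCm38.p6 gene and that of 1 of 78 from the GRCm39 gene, so coordinates are given as GRCm38. Multiplied by gene length, 100.0% of values were whole multiples of 1 step per library (tolerance 0.01 of a step), which gave back the reads per gene. It is not known whether a unit is a read or a pair. The columns had been scaled together by median-ratio size factors.

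The fit used limma 3.58.1 in R 4.3.3 on log2(FPKM + 1), with the trend and robust options, over the 12568 genes that averaged 1 FPKM or more. Two-sided p-values were adjusted over all of these by the Benjamini-Hochberg method. The pseudocount of 1 understates changes of weakly expressed genes. The fit was also run on simulated counts, with the same dispersion for every gene and no shift shared by the genes of a library. That run therefore does not show the error rate in these libraries. Tables and figures used Python 3.11.15, pandas 2.3.3 and matplotlib 3.10.9. Alternatives covered the pseudocount, the filter, scaling, the variance model, limma-voom on the recovered reads, a replicate block and each library left out. A correction for gene length was added after the data were seen.

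The members, lists and tests were chosen with earlier results of these data known. The naming rule took members past the threshold (up to 12 in each direction), the 5 highest and 5 lowest by mean, the 5 largest differences in each direction, those with an adjusted p between 0.05 and 0.1, those not tested, and 10 members picked for their known roles. From each related list it took up to 4 genes by adjusted p and the first in the other direction. Mrpl15, Mrpl17, Mrps17, Mrps11, Mrps12 and Mrps27, the partner genes, Gabpa, Nrf1, Yy1, Esrra and Tufm were named after their values were seen. Protein identity among Mrps18a, Mrps18b and Mrps18c was not computed.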

Additional observations from a re-analysis of the deposited data

How the results depend on the processing

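Precision was limited by 3 libraries per group, and a member's 95% interval reached a median of 0.35 to either side on the log2 scale. Settings that moved the median of all tested genes by more than 0.1 were TPM scaling (-0.16) and a fixed total without mitochondrially encoded genes (-0.17). Under both, 9 members were higher and 4 lower, and the member median (0.04 and 0.03) stood 0.20 above that of all genes, as in the reported fit. That distance was 0.11 with quantile normalization, 0.098 with array weights and 0.14 with the length correction. With a library left out it ran from 0.033 (without Wtap-CKO 3) to 0.33 (without Wtap-CKO 2). The split of all calls then was 33.7% and 32.9% higher, against 59.7% in the reported fit and 45.3% with upper-quartile scaling. Higher members numbered 26 with array weights, 10 with a mean of at least 0.1 FPKM, 6 with no filter and 11 with upper-quartile scaling, and 6 to 25 over the fits leaving out a library. Lower members numbered 4 with array weights and with quantile normalization, 5 with the length correction, 1 with a mean of at least 0.1 FPKM, 0 with no filter, and 0 to 4 with a library left out. Deviations of libraries of the same number had correlations of -0.22, -0.08 and -0.08, and those of unlike numbers ran from -0.14 to 0.26. Whether libraries of the same number shared a litter or batch is not stated by the labels and was not tested. With the replicate block 17 members were higher, 13 of them shared, and 0 lower, and 0 assembly factors were lower. The large-subunit median was 0.12 with the fixed total. Among ribosome genes with other names, 0 were higher with no filter (0 to 2 with a library left out), 1 was lower with TPM scaling and with the fixed total, and the median ran from -0.087 to 0.31 with a library left out. Among assembly factors, 1 was higher with no filter (1 to 4 with a library left out), and 2 were lower with TPM scaling, the fixed total, limma-voom and upper-quartile scaling. Array weights gave 3 lower, a mean of at least 0.1 or of 5 FPKM, no filter and each library left out gave 0, and the median was -0.077 with TPM scaling, -0.089 with the fixed total and 0.23 with a mean of at least 5 FPKM. Lower translation factors numbered 3 with TPM scaling, the fixed total and the length correction, 2 with array weights and upper-quartile scaling, and 1 with limma-voom, a mean of at least 5 FPKM and quantile normalization. Their median was -0.23, -0.24, -0.18 and -0.20 with TPM scaling, the fixed total, quantile normalization and upper-quartile scaling, and -0.11 to -0.047 with a library left out. In the list of mitochondrial DNA and RNA genes, 5 were higher with array weights and 1 with the fixed total (1 to 3 with a library left out, with 0 to 1 lower), and the median was -0.14, -0.16 and -0.094 with TPM scaling, the fixed total and quantile normalization. Lower regulators numbered 2 with array weights and 1 with TPM scaling, the fixed total, the length correction, quantile normalization and upper-quartile scaling (0 to 1 with a library left out), with medians of -0.16 and -0.17 under TPM scaling and the fixed total. Over 44 named members and 922 values under alternatives, 734 stayed on their side of the threshold with the same sign, 117 lost a call, 42 gained one and 29 changed sign, 0 of these in members called in the reported fit. Sign changes were in Mrpl58 (-0.093, -0.10, -0.0061 and -0.016 with TPM scaling, the fixed total, quantile normalization and upper-quartile scaling, -0.032 to 0.18 with a library left out), Mrps18c (-0.11, -0.12, -0.020 and -0.029 in the same order, -0.087 with the length correction, -0.13 to 0.27 with a library left out), Mrps25 (-0.014 and -0.025 with TPM scaling and the fixed total, -0.029 with array weights, -0.076 to 0.25 with a library left out), Mrps11 (-0.066 and -0.077 with TPM scaling and the fixed total, -0.041 with array weights, -0.011 with the length correction, -0.027 to 0.18 with a library left out), and, with a library left out, in Mrps10 (-0.17 to 0.051), Mrps27 (-0.21 to 0.034) and Mrps36 (-0.14 to 0.12). Except where fewer genes or samples entered a fit, the cause was not tested.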
